A study of Mus musculus with 10 samples.

Results

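The 10 Polycomb machinery genes examined here were Ezh2, Ezh1, Eed, Suz12 and Jarid2, whose products belong to Polycomb repressive complex PRC2, the H3K27 demethylase gene Kdm6b, and Ring1, Rnf2, Bmi1 and Cbx7, whose products belong to complex PRC1. They were taken by name, each as its gene body with 20 kb on both sides, out of 21938 protein-coding genes. PRC2 places methyl groups on lysine 27 of histone H3, and PRC1 binds chromatin that carries this mark and ubiquitinates histone H2A. In genetic studies SWI/SNF chromatin remodelers and Polycomb complexes are known to oppose each other at many genes.

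ChIP-seq, in which immunoprecipitated chromatin is sequenced, was performed in AB17, a line of immortalized primary hepatocytes of strain C57BL/6 carrying the Arid1a fl/fl genotype. Cells infected with Ad-GFP kept Arid1a and served as wildtype (WT), whereas cells infected with Ad-Cre were Arid1a-/- knockout (KO) cells. Cells of both genotypes had received SV40 large T antigen, an activated H-Ras and an adenovirus, and all came from 1 line. The repressive marks H3K27me3 and H3K9me3 were profiled in WT and KO cells. Arid1a and Brg1 (the SWI/SNF ATPase), Ctcf (the DNA-binding factor of loop anchors) and Rad21 (a subunit of the cohesin ring) were profiled in WT cells only, so that factor binding after Arid1a loss was not analysed here, and the deletion itself was not checked by these lists.

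Every measurement was a peak summit, a single base with the −log10 q-value that the peak caller assigned to the peak, called strength below. Each of the 8 lists came from 1 library, so no value has a replicate error and no test between genotypes was possible. The lists held 70408 to 143835 summits, and their read depth is unknown. A summit within 2 kb of the outermost annotated gene start was assigned to the start, other summits to the body or the flank, and summits of different lists at most 1 kb apart were called partners. Intervals are 95% Wilson binomial intervals, treat each summit as independent and cover counting error only.

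All 4 factors had summits at each of the 10 loci, and over all protein-coding genes 73.7% of windows had an Arid1a summit, 74.8% a Brg1, 84.9% a Ctcf and 84.3% a Rad21 summit. H3K9me3 was likewise found at all 10 loci in both genotypes, against 86.8% of all genes in WT and 82.0% in KO. The windows held 60 Arid1a, 75 Brg1, 81 Ctcf and 100 Rad21 summits. Per 100 kb of window the median member had 6.93 Arid1a summits against 3.29 for the median protein-coding gene, 9.08 against 3.94 for Brg1, 10.6 against 6.42 for Ctcf and 13.9 against 6.72 for Rad21. The windows held 84 H3K9me3 summits in WT and 45 in KO, and 22 H3K27me3 summits in WT and 13 in KO. Only H3K27me3 was missing altogether from some loci, with summits at 8 of 10 genes in WT (54.2% of all protein-coding genes) and at 6 of 10 in KO (46.3% of all genes).

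**Figure D1:**
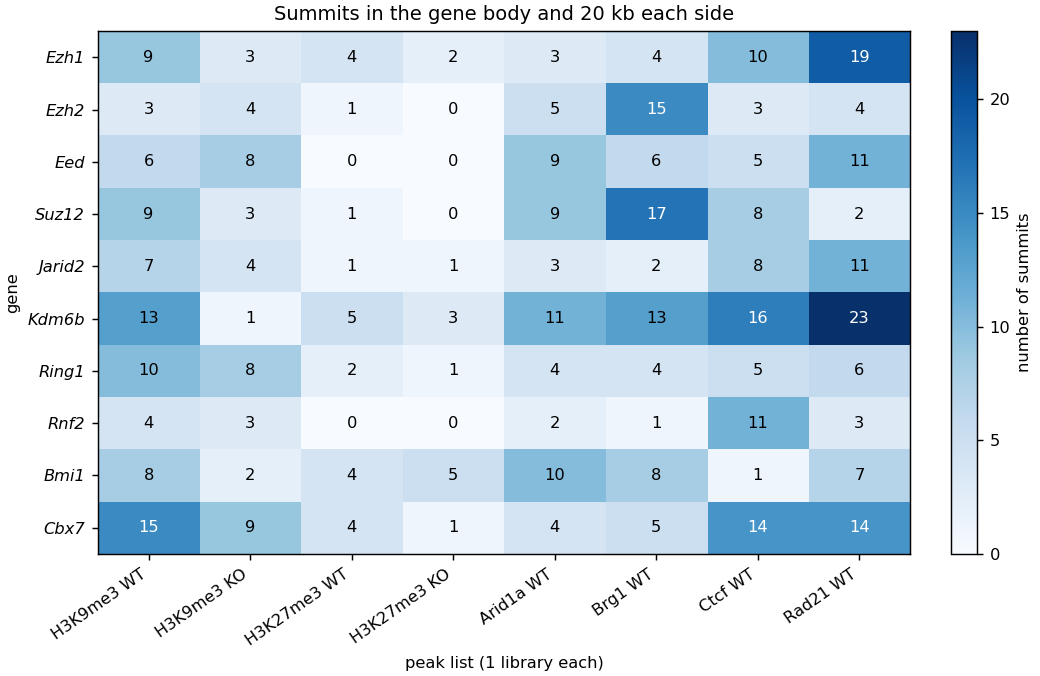
Number of summits in the gene body and 20 kb on each side for the 10 genes (vertical axis) in the 8 peak lists (horizontal axis, 1 library each), with the colour following the printed count. Kdm6b holds the most Rad21 summits (23), Suz12 (17) and Ezh2 (15) the most Brg1 summits, and Eed and Rnf2 hold no H3K27me3 summit in WT or KO.

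At the gene starts Rad21 and Arid1a were found at a larger share of the members than of all genes, and the other lists, KO H3K9me3 excepted, were close to the background. Rad21 had a start summit at 8 of 10 genes, against 50.6% of all protein-coding genes, and the exceptions were Suz12 and Cbx7. Arid1a had one at 7 of 10 genes (Ezh2, Eed, Suz12, Kdm6b, Ring1, Rnf2 and Bmi1), against 35.2% of all genes. Brg1 had one at 4 of 10 genes (Ezh2, Eed, Suz12 and Ring1), against 39.6%, which is no more than the background. Ctcf had one at 5 of 10 genes (Ezh2, Ezh1, Suz12, Kdm6b and Bmi1), against 42.5%, again close to the background. The 4 genes with Brg1 at the start were among those with Arid1a, and 26.5% of all protein-coding genes had start summits of both. Ctcf and Rad21 met at the starts of 4 genes (Ezh2, Ezh1, Kdm6b and Bmi1), against 35.4% of all genes.

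For H3K27me3, the same 2 genes, Ezh1 and Bmi1, had a start summit in WT (23.4% of all genes) and in KO (19.8%), and 17.2% of all genes had one in both. No member had one in WT alone or in KO alone, which 6.14% and 2.58% of all genes had. For H3K9me3, 4 genes had a start summit in WT (38.7% of all genes) and 4 in KO (14.0%), but only Kdm6b and Suz12 had one in both (7.30% of all genes). Most start summits were weak. At a strength of at least 5, no member had a start summit of H3K9me3 (1.36% of all genes in WT and 0.470% in KO) or Arid1a (4.32%). Bmi1 alone had one of H3K27me3, in both genotypes (10.3% of all genes in WT and 9.07% in KO), and one of Ctcf (24.8%). Ezh2 and Suz12 had Brg1 (6.22%), and Ezh2, Jarid2 and Bmi1 had Rad21 (21.0%).

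**Figure D2:**
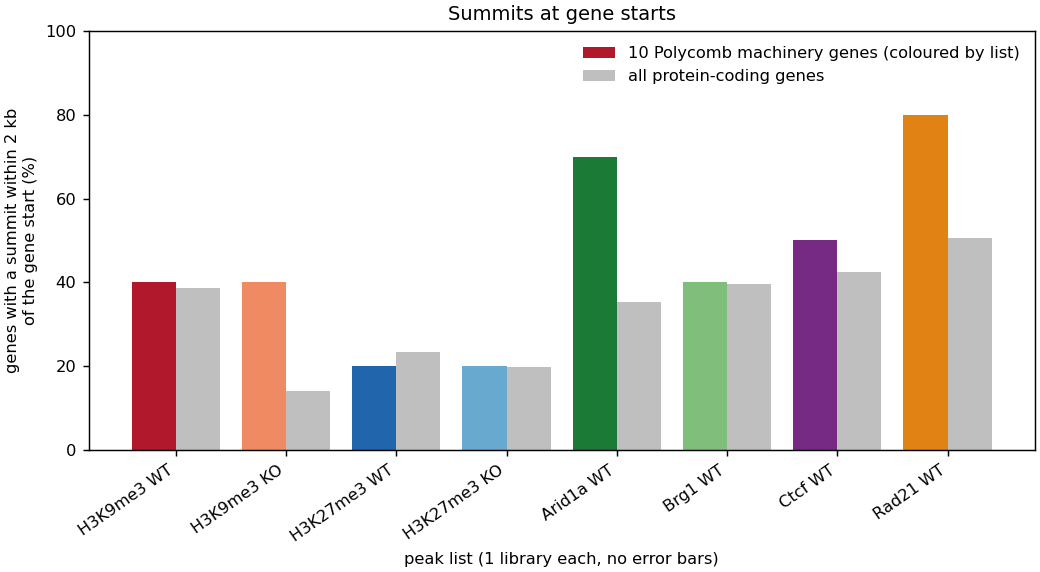
Percentage of genes with at least 1 summit within 2 kb of the gene start (vertical axis) in each of the 8 lists (horizontal axis), for the 10 Polycomb machinery genes (coloured bars) and for all 21938 protein-coding genes (grey bars). Rad21 reaches 8 and Arid1a 7 of the 10 genes, while the bars for H3K27me3, Brg1 and WT H3K9me3 are close to the grey ones, and no error bars exist because each list is 1 library.

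The RefSeq promoter windows of the members were rich in CG dinucleotides. These windows (GRCm38.p6, 250 bases before to 50 after the RefSeq start) were matched for 9 of the 10 genes, all but Kdm6b, in 10 windows since Jarid2 has 2. Their GC content ran from 54.7% (Eed) to 74.0% (Ring1) with a median of 65.3%, against a median of 52.7% over the 32851 promoter windows of the table. Their observed to expected CG ratio ran from 0.708 (Bmi1) to 1.09 (Suz12) with a median of 0.856, against a median of 0.384. Not all of these windows lie at the outermost start used elsewhere here. The RefSeq start is 38473 bp from it at Cbx7, and the RefSeq starts of Jarid2 are 1300 bp and 1797 bp from it.

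Ezh2 (chr6:47530139-47595341, minus strand) encodes the main catalytic subunit of PRC2. Its start was the only one among the 10 genes with summits of all 4 factors, which 16.6% of all genes had. The strongest was Brg1, 607 bp inside the gene (strength 8.40), with Arid1a 120 bp away (3.33) and Ctcf at 682 bp (2.14) also intronic, and with Rad21 144 bp upstream (5.38). Across the whole window Ezh2 had 15 Brg1 summits, 5 Arid1a, 3 Ctcf and 4 Rad21 summits. The Brg1 summits were spread over the gene, but none besides the one at 607 bp exceeded a strength of 4.49. The marks were few. H3K9me3 had 3 summits in WT and 4 in KO, with a WT summit 21 bp inside the gene (2.59) and none at the start in KO, where the nearest lay at 11002 bp. H3K27me3 had a single WT summit at 14782 bp upstream (1.32), barely above the calling threshold, and none in KO.

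Ezh1 (chr11:101191115-101226463, minus strand) encodes the less active alternative catalytic subunit. It had no Arid1a or Brg1 summit at the start, where Ctcf lay 86 bp upstream (3.03) and Rad21 302 bp inside (3.27). It was one of the pair of members with H3K27me3 at the start. In WT this mark had summits at 1918 bp (3.55) and 3071 bp (5.12) upstream, and in KO at 1349 bp (3.04) and 3201 bp (5.08) upstream. Both genotypes thus showed a small upstream H3K27me3 site of nearly the same strength in each list. The strongest H3K27me3 summit of the Ezh1 window, at 23.3 in WT, stood at the neighbouring gene Ramp2, which encodes a receptor activity modifying protein. It lay 19947 bp upstream of Ezh1 and 382 bp from the Ramp2 start, and the nearest KO summit (16.7) was 829 bp away, just outside the window. The Ezh1 counts of 4 WT and 2 KO H3K27me3 summits therefore include an effect of the window edge.

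Ezh1 also held the strongest Ctcf summit of the 10 loci. It stood 52457 bp downstream of the start, in the coding exon of Ccr10 and an intron of Cntnap1, with a strength of 86.8, and a Rad21 summit (21.5) lay 6 bp from it. A similar pair in a Cntnap1 intron had a Ctcf strength of 65.4 and a Rad21 strength of 13.5 at 4 bp. Within Ezh1 itself, an intronic Ctcf summit 14400 bp from the start reached 50.2, with a Rad21 summit of 25.9 at 14217 bp. Strong Ctcf sites thus lay within and downstream of the gene, and its start carried a weak one.

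A Rad21 summit within 100 bp was found at 21 of the 81 member Ctcf summits (25.5% of the whole Ctcf list) and at 10 of the 13 with a strength of 20 or more (76.0% of such summits in the list). Of these pairs, 10 of 21 held a match to the letters by which Ctcf is known to bind, and of the pairs with a strength of 20 or more 7 had a match and 3 had none, the latter at Kdm6b (32.7 and 26.7) and Suz12 (21.7). The Ezh1 site of 50.2, with Rad21 183 bp away, had none either. Chosen for holding a match, the sequences shown are the 5 strongest pairs with a match to the 12-letter core CCNNNAGNNGGC on either strand (GCCNNCTNNNGG when read on the other), in 101 bases centred on the Ctcf summit, in GRCm38, with the match in capitals.
Ezh1 flank, Ccr10 exon, strength 86.8 (chr11:101173956-101174056, + strand): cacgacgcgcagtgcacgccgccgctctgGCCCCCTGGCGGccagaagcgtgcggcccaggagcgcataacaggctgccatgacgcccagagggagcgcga
Cbx7 intron, strength 78.1 (chr15:79946143-79946243, + strand): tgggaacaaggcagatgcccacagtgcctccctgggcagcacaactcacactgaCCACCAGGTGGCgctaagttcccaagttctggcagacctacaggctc
Ezh1 flank, Cntnap1 intron, strength 65.4 (chr11:101180993-101181093, + strand): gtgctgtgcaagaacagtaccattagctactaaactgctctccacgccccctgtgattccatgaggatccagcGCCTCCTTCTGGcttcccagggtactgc
Cbx7 intron, strength 55.2 (chr15:79941064-79941164, + strand): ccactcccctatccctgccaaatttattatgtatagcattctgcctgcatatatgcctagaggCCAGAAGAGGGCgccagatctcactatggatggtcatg
Kdm6b flank, intergenic, strength 48.4 (chr11:69390492-69390592, + strand): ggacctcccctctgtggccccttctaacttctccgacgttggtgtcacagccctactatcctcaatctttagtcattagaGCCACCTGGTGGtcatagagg

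Such matches were present at 17 of the 81 member Ctcf summits and at 17.7% of the whole Ctcf list, against 1.93% of positions moved by 2 kb. They followed strength. Of the member summits of strength 20 or more, 7 of 13 had a match (41.9% of such summits in the list), and of those under 5, 5 of 52 had one (7.42% in the list). The second Cbx7 sequence lay wholly in soft-masked bases of the reference, which mark repeats, while the others were 0 to 5.94% soft-masked.

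Eed (chr7:89954654-89980983, minus strand) encodes the PRC2 subunit that reads trimethylated H3K27. Its start faces that of the noncoding gene E230029C05Rik on the other strand, and it had the most Arid1a start summits of the 10 genes, 4. The strongest of them lay 26 bp upstream (4.70). A Brg1 summit 713 bp inside the gene (3.24) was 7 bp from an Arid1a summit, and Rad21 stood at 691 bp (4.01). In the window Eed had 9 Arid1a, 6 Brg1, 5 Ctcf and 11 Rad21 summits, the strongest being a Ctcf summit 17205 bp upstream (25.4) with Rad21 at 17395 bp (16.0). No H3K27me3 summit lay within 292606 bp of the start in WT or within 319276 bp in KO. As at Ezh2, H3K9me3 had the higher count in KO, with 6 summits in WT and 8 in KO, and a KO summit stood 1 bp from the start, at a strength of 1.75 that is close to the threshold.

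Suz12 (chr11:79993106-80034123, plus strand) encodes the subunit that holds PRC2 together. It had the highest Brg1 count of the 10 loci, 17 summits, with 9 Arid1a and 8 Ctcf summits but only 2 of Rad21. At the start Brg1 lay 774 bp upstream (4.68), 307 bp inside in a coding exon (5.96) and 1695 bp inside (1.72). Arid1a was placed 82 bp from the upstream Brg1 summit (2.14) and again at 1196 bp (4.70). The start was thus lined by SWI/SNF summits on both sides, and the nearest Rad21 summit was 20592 bp away. H3K9me3 summits fell in the same 2 kb. In WT they lay 772 bp upstream (2.35), 13 bp upstream (3.31) and 946 bp inside (2.64), and in KO there was 1 at 600 bp upstream (3.62). Over the window the H3K9me3 count was 9 in WT and 3 in KO. The single H3K27me3 summit that lay in the WT window, 18817 bp upstream (4.76), had no KO counterpart in the window.

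**Figure D3:**
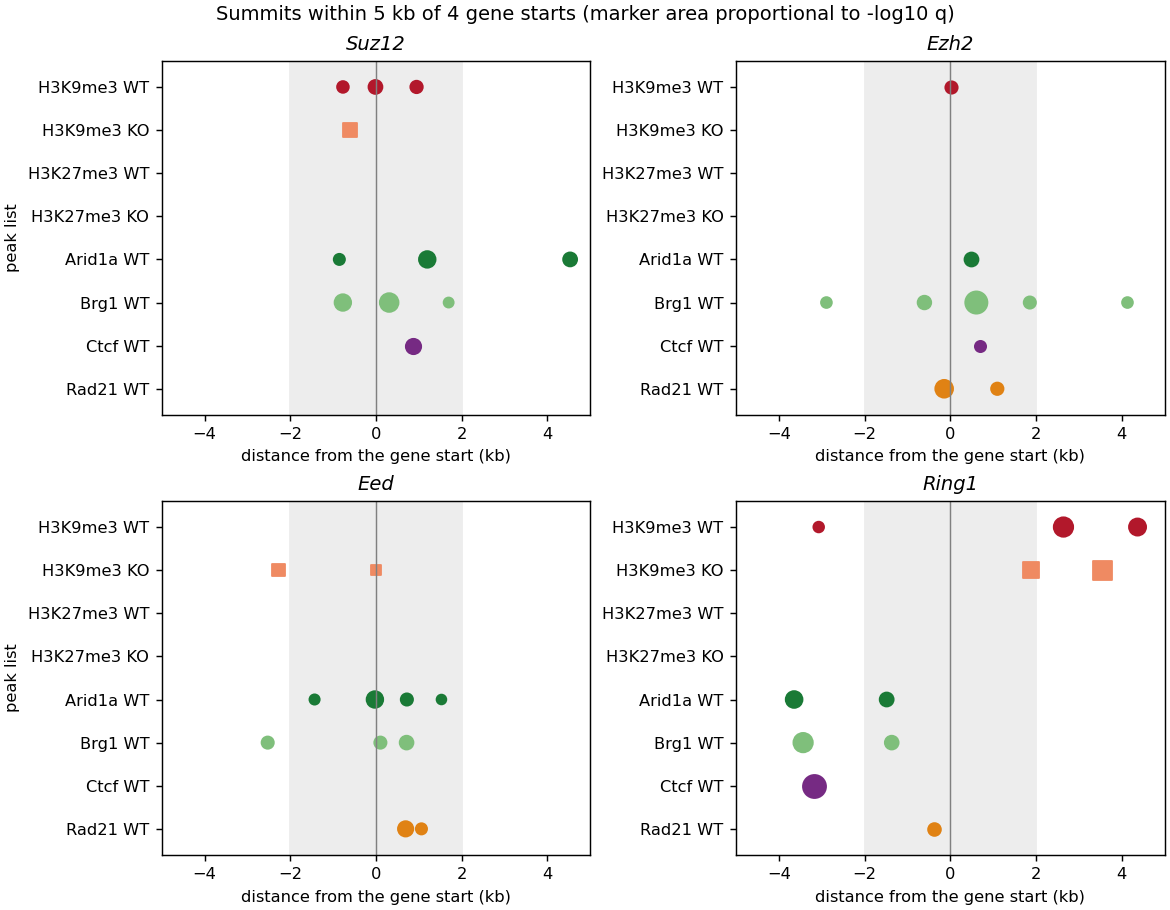
Summits within 5 kb of the starts of Suz12, Ezh2, Eed and Ring1, the 4 genes with both Arid1a and Brg1 at the start, by list (vertical axis) and distance from the start in the direction of transcription (horizontal axis, kb), with marker area proportional to strength and grey shading over the 2 kb on each side. The Brg1 summit of Ezh2 at 607 bp (8.40) is the strongest in the shaded areas, and the rows of H3K27me3 are empty in all 4 panels.

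H3K9me3 at the start differed between genotypes at Ezh2 and Jarid2, where only WT had a summit (31.4% of all genes were like this), and at Eed and Ring1, where only KO had one (6.69% of all genes). The 150 bases before the annotated start of these 4 genes are given because the start call differs there, read in the direction of transcription in GRCm38, with CG dinucleotides in capitals. The differing summits stand 21 bp (Ezh2) and 1 bp (Eed) inside the gene, but 1867 bp (Jarid2) and 1891 bp (Ring1) inside, far from the stretch shown. The Ring1 and Ezh2 stretches are dense in CG, that of Eed is intermediate, and that of the outermost Jarid2 start has the fewest.
Ezh2 (chr6:47595342-47595491, - strand): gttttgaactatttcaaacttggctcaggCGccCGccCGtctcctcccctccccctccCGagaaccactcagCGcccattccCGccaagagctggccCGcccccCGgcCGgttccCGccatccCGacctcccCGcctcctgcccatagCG
Jarid2 (chr13:44729324-44729473, + strand): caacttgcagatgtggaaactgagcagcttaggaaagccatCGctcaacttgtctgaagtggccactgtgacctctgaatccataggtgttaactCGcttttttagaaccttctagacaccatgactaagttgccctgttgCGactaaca
Eed (chr7:89980984-89981133, - strand): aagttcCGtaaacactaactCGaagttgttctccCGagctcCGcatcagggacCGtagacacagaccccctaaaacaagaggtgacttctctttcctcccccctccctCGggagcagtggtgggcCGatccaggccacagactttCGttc
Ring1 (chr17:34024681-34024830, - strand): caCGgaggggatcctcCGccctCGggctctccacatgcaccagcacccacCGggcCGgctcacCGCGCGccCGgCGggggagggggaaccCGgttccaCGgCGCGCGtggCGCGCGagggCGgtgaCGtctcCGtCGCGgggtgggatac

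Jarid2 (chr13:44729474-44921643, plus strand) encodes an accessory subunit that helps PRC2 find its targets. It is the longest of the 10 genes, and it was poor in SWI/SNF summits, with 3 for Arid1a and 2 for Brg1 in a window of 232170 bp. Its start had Rad21 at 681 bp (7.06) and a WT H3K9me3 summit at 1867 bp (3.31), just inside the 2 kb limit and 70 bp from 1 of its 2 RefSeq starts. Ctcf had 8 summits and Rad21 11, the strongest of them in introns, with Ctcf at 56987 bp (17.6) and Rad21 at 104096 bp (14.5). The start window of Jarid2 held no H3K27me3 summit.

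One intronic site of Jarid2 carried by far its strongest mark summits in all 4 mark lists. WT H3K9me3 (19.8) and WT H3K27me3 (32.0) had their summits on the same base, 140306 bp from the start, and the KO summits of H3K9me3 (20.46) and H3K27me3 (19.96) lay 140245 bp and 140253 bp from the start. The 151 bases around them are shown because this stretch occurs in many copies, with the part spanned by the 4 summits in capitals.
Jarid2 intron (chr13:44869674-44869824, + strand): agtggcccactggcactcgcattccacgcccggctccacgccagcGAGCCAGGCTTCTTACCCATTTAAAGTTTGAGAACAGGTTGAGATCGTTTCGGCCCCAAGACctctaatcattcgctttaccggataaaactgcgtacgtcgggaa
A search of the GRCm38 chromosomes with BLAST found 16 other segments that matched at least part of the spanned bases over at least 200 bp with at least 90% identity, between 90.9% and 98.9% identical over 256 to 463 bp. Of these, 9 had a summit of at least 1 of the 4 mark lists within 500 bp, 3 had summits of all 4, and 1 had a factor summit. On one of them the strength of H3K9me3 reached 52.9 in WT and 65.6 in KO, and that of H3K27me3 reached 46.8 in WT and 57.9 in KO. The Jarid2 site itself had a Rad21 summit (4.89) 21 to 82 bp from its mark summits, and none of the 16 copies had one. Whether reads of other copies were placed at Jarid2 was not tested. The strong summits include the only H3K27me3 summits of the Jarid2 window in either genotype.

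Kdm6b (chr11:69398508-69413675, minus strand) encodes a demethylase that removes the PRC2 mark. It had the most Arid1a (11), Ctcf (16) and Rad21 (23) summits of the 10 loci, and 13 Brg1 summits, in a window of 55168 bp. The strongest Arid1a and Brg1 summits of all 10 loci lay in one of its introns. Brg1 reached 11.1 at 2964 bp from the start, with Arid1a at 2884 bp (6.13) and a second, stronger Arid1a summit at 3569 bp (10.54). The start itself carried weak summits of Arid1a (2.13 at 1647 bp), Ctcf (2.72 at 1130 bp) and Rad21 (2.55 at 125 bp upstream). Strong Ctcf and Rad21 pairs stood on both sides of the gene. Downstream, 23133 bp from the start, Ctcf reached 48.4 and Rad21 68.2, the highest Rad21 strength of the 10 loci. Upstream, Ctcf and Rad21 reached 40.4 and 28.0 at 5891 bp and 5830 bp, and 26.7 and 31.5 at 18675 bp and 18606 bp.

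H3K27me3 at Kdm6b lay upstream of the gene. It had 5 WT summits and 3 KO summits, all in the interval from 7837 bp to 15823 bp upstream, in introns of Dnah2, which encodes an axonemal dynein. The strongest were 8.59 in WT at 7995 bp and 6.35 in KO at 7837 bp, 158 bp apart, so the same upstream site was present in both genotypes. H3K9me3 differed most at this gene, with 13 WT summits (4 upstream, 6 in the gene and 3 downstream) and a single KO summit inside the gene. Of the WT summits the highest lay 3510 bp upstream (5.56) and 4538 bp inside the gene (5.33), and the KO summit lay at 948 bp (2.63), 1167 bp from the nearest WT summit.

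Ring1 (chr17:34020792-34024680, minus strand) and Rnf2 encode the E3 ubiquitin ligases of PRC1. Ring1 is the shortest of the 10 genes and lies in the gene-dense major histocompatibility region beside H2-Ke6. At its start Arid1a (3.33, 1486 bp upstream) and Brg1 (3.24, 1368 bp upstream) were 118 bp apart, at the end of H2-Ke6, and Rad21 lay 385 bp upstream (2.78). The window had 4 Arid1a, 4 Brg1, 5 Ctcf and 6 Rad21 summits, with Ctcf strengths of 29.5 at 21066 bp downstream of the start and 19.2 at 9665 bp upstream in Rxrb. H3K9me3 was comparatively dense in both genotypes, with 10 WT and 8 KO summits, and its strongest summits were inside the gene, 6.43 in WT at 2640 bp and 6.11 in KO at 3544 bp. The KO start summit (4.28) lay at 1891 bp, just inside the 2 kb limit, and the WT summit at 2640 bp lay outside it, which sets the start call that differs between genotypes. H3K27me3 was at 1.92 in WT and 2.09 in KO at 17800 bp and 17910 bp upstream, and a further WT summit (1.47) lay 19038 bp downstream of the start.

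Rnf2 (chr1:151458004-151500955, minus strand) had few summits of any kind other than Ctcf. Arid1a had 2 (3.33 at 1944 bp upstream, just inside the limit, and 1.79 at 305 bp upstream), Brg1 had 1, far inside the gene at 34087 bp, and Rad21 had 3. Of its 11 Ctcf summits the strongest was intronic, 3699 bp from the start (11.5), and held a match to the Ctcf letters. No H3K27me3 summit lay within 367073 bp of the start in WT or 475454 bp in KO. H3K9me3 had 4 summits in WT and 3 in KO, none at the start.

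Bmi1 (chr2:18677018-18686629, plus strand) encodes a PRC1 subunit known for repressing the Cdkn2a locus. It had the strongest start H3K27me3 of the 10 genes. The WT summit lay 945 bp inside the gene in an intron (14.3), and the KO summit lay 188 bp farther, at 1133 bp (9.74). On the upstream side of the same start were Ctcf at 360 bp (12.5), Rad21 at 885 bp (8.76) and Arid1a at 213 bp (3.76), with a second Rad21 summit at 372 bp inside (6.68). This Ctcf summit was the only one in the Bmi1 window. A second H3K27me3 site lay 22039 bp downstream of the start in Spag6, which encodes a protein of the sperm axoneme, with strengths of 15.7 in WT and 8.72 in KO at a distance of 224 bp. Bmi1 was the only one of the 10 genes with more H3K27me3 summits in KO (5) than in WT (4), with weak KO summits, 2.75 to 2.82, around the Spag6 site. This excess lay in the flank, with 1 WT and 4 KO summits. The start had 1 in each genotype, and the rest of the gene body held 2 in WT and 0 in KO. The H3K9me3 count at Bmi1 was 8 in WT and 2 in KO, with none at the start.

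The 101 bases under the Bmi1 Ctcf summit are shown since this is the strongest factor summit at any of the 10 starts and yet holds no match to the core letters above. CG dinucleotides are in capitals.
Bmi1 start (chr2:18676608-18676708, + strand): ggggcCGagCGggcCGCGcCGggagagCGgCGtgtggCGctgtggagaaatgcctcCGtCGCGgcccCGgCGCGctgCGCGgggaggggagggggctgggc

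Cbx7 (chr15:79915807-79971119, minus strand) encodes a chromodomain protein through which PRC1 binds H3K27me3. It was the only gene of the 10 with no factor summit at the outermost start, as were 34.6% of all genes. That start belongs to a long annotated transcript, and the RefSeq start lies 38473 bp farther downstream. Around the RefSeq start there was again no factor and no H3K27me3 summit within 2 kb, but 2 H3K9me3 summits in WT (the stronger 3.52, 144 bp inside) and 2 in KO (the stronger 4.23, 438 bp inside). The factor summits were strongest between both starts. A Ctcf summit 24926 bp from the outermost start reached 78.1 with Rad21 at 68.2 only 4 bp away and a weak Brg1 summit (1.94) 40 bp away, and a second pair at 30005 bp reached 55.2 and 11.2. The locus had 15 WT and 9 KO H3K9me3 summits, the highest counts of the 10 genes in both genotypes, none above a strength of 4.51. H3K27me3 had 4 weak WT summits of at most 3.16 and 1 KO summit (1.47).

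**Figure D4:**
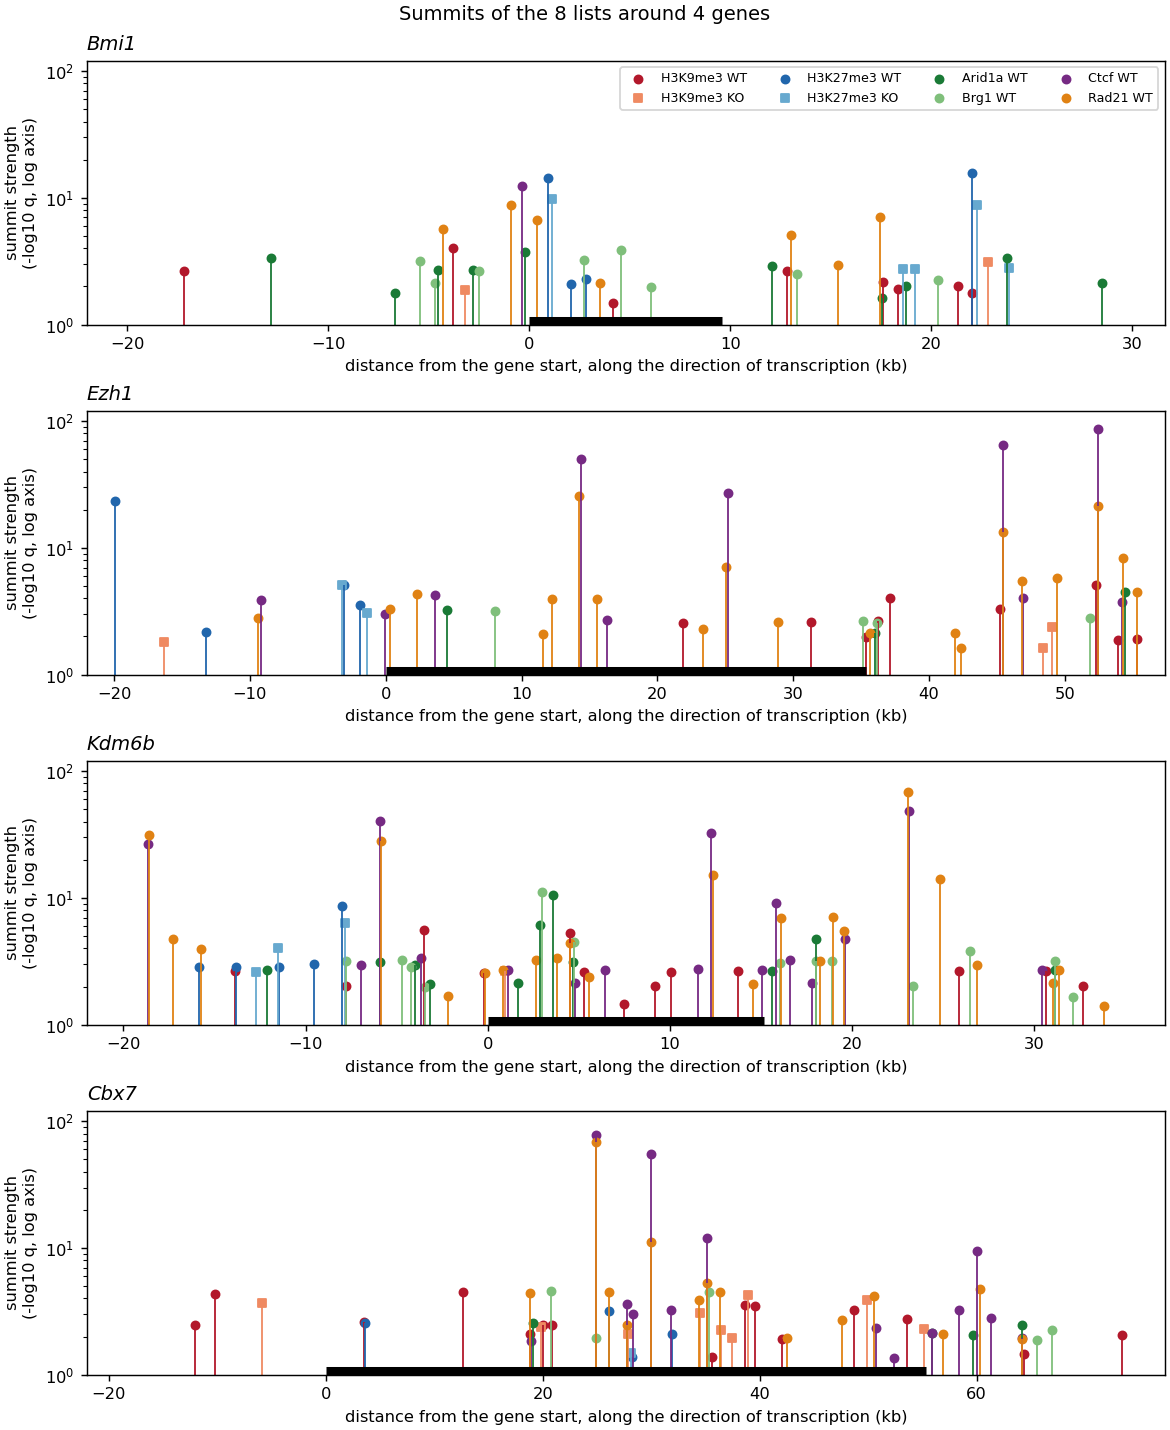
Summits of the 8 lists at Bmi1, Ezh1, Kdm6b and Cbx7 by distance from the gene start in the direction of transcription (horizontal axis, kb) and strength (vertical axis, −log10 q on a log axis), with circles for WT, squares for KO and a black bar for the gene body. WT and KO H3K27me3 stand together at the Bmi1 start (14.3 and 9.74), upstream of Ezh1 (5.12 and 5.08) and upstream of Kdm6b (8.59 and 6.35), and outside the Bmi1 panel the tallest lines are Ctcf and Rad21 summits away from the starts.

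Comparing genotypes, the 10 loci held fewer summits of both marks in the KO lists. The KO to WT ratio of H3K9me3 summits was 0.536 (45 against 84, interval 0.374 to 0.768), against 0.736 over the windows of all protein-coding genes and 0.938 over the whole lists. The interval thus covers the ratio over all gene windows, though not that of the whole lists. It treats neighbouring summits as independent, and with summits within 3 kb merged the ratio was 0.604. The KO count was below the WT count at 8 of 10 genes (60.0% of all genes), the exceptions being Ezh2 (3 and 4) and Eed (6 and 8). Only a gene with a WT summit can have a lower KO count. All 10 genes had one, as did 19036 of all genes, of which 13171 had a lower KO count. At Kdm6b, Suz12, Ezh1 and Bmi1 the KO count was lower by at least 2-fold and also by at least 6 summits, and 44.0% of all genes had a KO count lower by at least 2-fold.

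The chromosome moved with this result. Kdm6b, Suz12 and Ezh1 are on chromosome 11, and their counts went from 31 in WT to 7 in KO, a ratio of 0.226 (interval 0.102 to 0.502). The whole H3K9me3 lists also had fewer KO than WT summits on this chromosome, with a ratio of 0.649, against 0.961 on all other chromosomes together. The 7 members elsewhere went from 53 to 38, a ratio of 0.717 (interval 0.474 to 1.08). The part of chromosome-wide differences between the libraries in the ratios of single genes was not tested, and genotype and library cannot be told apart in these lists.

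For H3K27me3 the KO to WT ratio over the 10 loci was 0.591 (13 against 22, interval 0.302 to 1.16), against 0.785 over all gene windows and 0.785 over the whole lists, so the interval covers the ratio of the whole lists and also 1. The KO count was lower at 6 of 10 genes (37.9% of all genes) and higher at Bmi1 alone (11.9% of all genes). Only a gene with a WT summit can have a lower KO count. These were 8 of the 10 genes, of which 6 had a lower count, and 11892 of all genes, of which 8309 did. At Bmi1 the excess lay in the flank, and the gene body itself had fewer KO summits. The stronger sites were found in both lists. All 6 WT summits with a strength of at least 5 had a KO partner of at least 5 within 1 kb, and all 5 such KO summits had a WT partner, against 36.9% and 45.7% of such summits over all gene windows. The 5 KO summits were partners of the WT summits just counted, so the second count adds no further sites. These sites lay in the windows of Ezh1, Jarid2, Kdm6b and Bmi1, and include those in the neighbours Ramp2 and Spag6. In each count 1 was the multi-copy Jarid2 site. Without a limit on strength, 50% of WT H3K27me3 summits (11 of 22, interval 30.7% to 69.3%) had a KO partner, and 21.4% of WT H3K9me3 summits (18 of 84, interval 14.0% to 31.3%) did, with intervals that overlap slightly. Over all gene windows these shares were 55.05% and 26.1%.

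**Figure D5:**
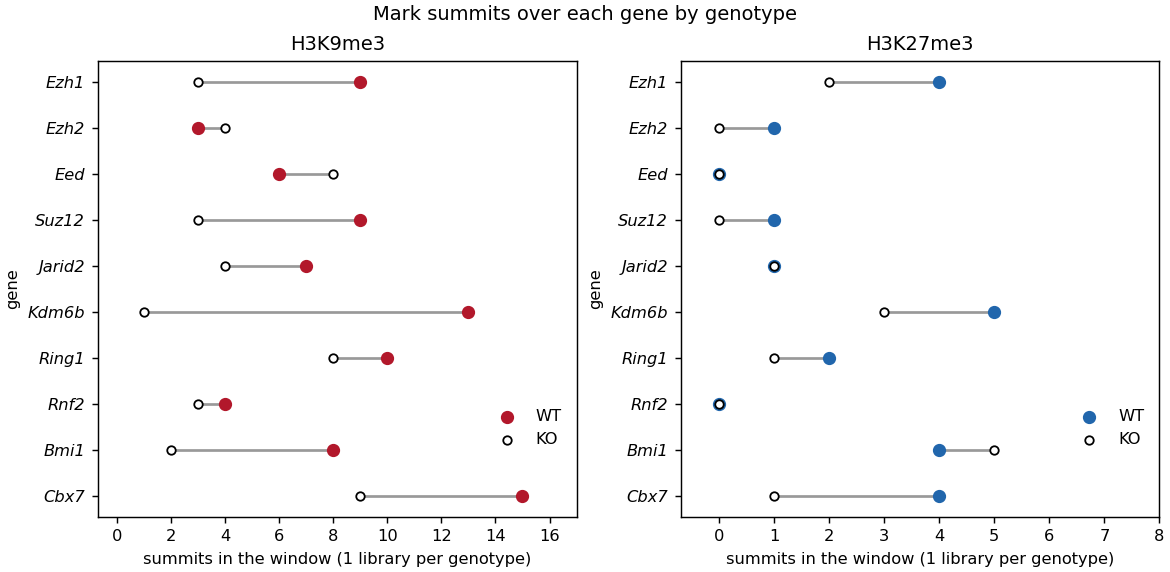
Number of H3K9me3 (left) and H3K27me3 (right) summits in the window of each gene (horizontal axis) for WT (filled) and KO (open), 1 library per genotype, with a line joining the genotypes. H3K9me3 falls from 13 to 1 at Kdm6b and is higher in KO at Ezh2 and Eed. H3K27me3 is higher in KO at Bmi1 alone, through summits in its flank.

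Factor summits lay together at these loci at shares whose intervals cover those of all gene windows. Of the Rad21 summits, 55% (55 of 100, interval 45.2% to 64.4%) had a Ctcf summit within 1 kb, against 53.4% over all gene windows. Of the Brg1 summits, 38.7% (29 of 75, interval 28.5% to 49.98%) had an Arid1a summit within 1 kb, against 31.1%. Marks met the WT factors at higher shares than over all gene windows, though several intervals cover the latter. A Brg1 summit lay within 1 kb of 33.3% of the WT H3K9me3 summits (28 of 84, interval 24.2% to 43.9%), against 18.1% over all gene windows. For KO H3K9me3 summits the share, against the WT Brg1 list, was 15.6% (7 of 45, interval 7.75% to 28.8%) compared with 9.27%, which the interval covers. Of the WT H3K27me3 summits, 18.2% (4 of 22, interval 7.31% to 38.5%) had a Brg1 summit, compared with 3.34%, and of the KO ones 7.69% (1 of 13, interval 1.37% to 33.3%) did, compared with 2.57%. A Rad21 summit lay within 1 kb of 31.8% of the WT H3K27me3 summits (7 of 22, interval 16.4% to 52.7%), against 13.1%, and of 23.1% of the KO ones (3 of 13, interval 8.18% to 50.3%), against 12.5%. For H3K9me3 the Rad21 shares were 28.6% in WT (24 of 84, interval 20.02% to 39.0%), against 21.6%, and 20% in KO (9 of 45, interval 10.9% to 33.8%), against 9.45%. The windows were also denser in Brg1 and Rad21 than the median gene, and the share of this density in the overlap was not tested.

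A further 30 genes of the Polycomb machinery, taken by their known roles, were counted in the same way. Their windows held 205 WT and 96 KO H3K9me3 summits, a ratio of 0.468 (interval 0.368 to 0.596), against 0.736 over all gene windows. For H3K27me3 they held 134 WT and 92 KO summits, a ratio of 0.687 (interval 0.527 to 0.895), against 0.785, which the interval covers. Start summits were found at 18 of 30 for Arid1a (35.2% of all genes), 17 for Brg1 (39.6%), 21 for Ctcf (42.5%) and 24 for Rad21 (50.6%). For H3K9me3, 18 had a start summit in WT (38.7% of all genes) and 7 in KO (14.0%). In WT only 11 had one (31.4% of all genes) and in KO only 0 did (6.69%), where the 10 genes had 2 and 2. For H3K27me3, 8 of 30 had a start summit in WT (23.4% of all genes) and 6 in KO (19.8%), which is close to the background. In WT only 4 had one (6.14% of all genes) and in KO only 2 did (2.58%). Cbx2, Epop, Phc2 and Phf19 had one in both (17.2% of all genes). Epop, which encodes a PRC2 partner, had the strongest of these, 29.3 in WT and 33.9 in KO. Cbx2, a chromodomain gene like Cbx7, had 11.1 in WT and 6.07 in KO.

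Cbx8, another gene of the chromodomain group, had an H3K27me3 start summit in KO only, though its window held 5 WT and 4 KO summits. The KO start summit, of strength 30.1, lay 1653 bp from the start. The nearest WT summit lay 6661 bp from that site with a strength of 1.79. Over all gene windows, 45.7% of KO H3K27me3 summits of strength 5 or more had a WT partner of that strength within 1 kb. Pcgf1, from the family of Bmi1, had a weaker KO start summit (3.38), with the nearest WT summit 6797 bp away. In the other direction, the WT start summits of Pcgf3, Pcgf5, Rybp and Scmh1 (2.22 to 4.16) had no KO summit at the start, though that of Pcgf3 had a KO summit of 6.63 at 1137 bp from it. Beyond Cbx8, none of these one-sided start summits exceeded a strength of 4.16.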

How the data were processed

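Peak summits of 8 ChIP-seq libraries of AB17 cells were used, and the 2 input samples entered only through peak calling. Per the study's methods, the authors aligned reads to mm10 with Bowtie2, filtered them with SAMtools and Picard, and called peaks with MACS2 against the corresponding input (versions not given in the sources used here). The deposited −log10 q-value of each summit was used as strength, a unit read from the values since the lists have no header. It grows with depth, so strengths were not compared between libraries by a test. Narrow calling splits broad marks into strings of summits.

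Samples were grouped by title, genotype and antibody. Genes and starts came from GENCODE vM21. All 10 genes were described, with the strongest summits of each list, neighbouring genes with a named summit near their start, and those of 30 further Polycomb genes that had an H3K27me3 start summit. Sequences came from GRCm38 at the strongest paired Ctcf and Rad21 summits with a motif match, at starts where a mark differed, and at 2 sites chosen after the data were seen (the Bmi1 start and the Jarid2 intron). The strength limit of 20 in the motif counts was likewise set afterwards. Members and lists were chosen with earlier results of these data known. Counting used Python 3.11.15, pandas 2.3.3 and numpy 2.4.6, sequences pysam 0.24.0 and samtools 1.23.1, and copies BLAST 2.17.0. Ratio intervals came from the Wilson interval of the KO share of the summed counts. The code for the assignment to zones was run on 524 simulated positions, planted by the same limits and including some outside the windows. All were assigned as planted (100%), which checks the counting code only and not the lists.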

Additional observations from a re-analysis of the deposited data

How the results depend on the processing

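No paired analysis was possible because each group had 1 library and no replicate numbers exist. The number of members with a start summit stayed within 1.5 times of its value in 34 comparisons with an alternative and did not in 14. At a strength of at least 5 it was 0 for H3K9me3 in both genotypes and for Arid1a, 1 for H3K27me3 in both genotypes and for Ctcf, 2 for Brg1 and 3 for Rad21. For H3K27me3 within 1 kb of the start it was 1 in WT and 0 in KO. With a start window of 5 kb it was 8 for WT H3K9me3 and 8 for Ctcf, with any annotated transcript start 8 for WT H3K9me3, and with lists limited to the strongest 70408 summits 2 for WT H3K9me3.

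The KO to WT ratio of H3K9me3 was 0.8 at a strength of at least 5, where only 5 WT and 4 KO summits remained, and 0.474 to 0.62 with any 1 gene left out (lowest without Eed, highest without Kdm6b). It was 0.643 when scaled by the lists of each chromosome and 0.53 without the multi-copy Jarid2 site, both chosen after seeing the data, as was the RefSeq start. For H3K27me3 the ratio was 0.375 over the gene bodies only, 0.833 at a strength of at least 5, 0.444 without Bmi1 and 0.667 without Cbx7, and it stayed within its interval under every alternative tried.

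The share of WT H3K9me3 summits with a KO partner was 9.52% within 500 bp, 33.3% within 2 kb and 40% at a strength of at least 5. For KO H3K9me3 summits with a WT partner it was 17.8%, 48.9% and 50%. For H3K27me3 at a strength of at least 5 it was 100% in both directions. Rad21 summits had a Ctcf partner in 42% within 500 bp and 73% within 2 kb. Brg1 summits had an Arid1a partner in 28% within 500 bp, 56% within 2 kb and 20% (1 of 5) at a strength of at least 5. Without replicates or depths, differences between single libraries cannot be told apart from differences between genotypes.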
